A study of Mus musculus with 6 samples.

Results

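Natural killer (NK) cells were examined by single cell RNA sequencing of 6 mouse kidneys, of which 2 were naive, 2 rejecting, and 2 tolerized. NK cells were selected on measured values of single genes. At least 2 of the 4 genes Ncr1, Klrb1c, Klre1, and Eomes had to be detected in it, and Cd3e, Cd3d, Cd3g, Cd79a, and C1qb had to be absent. A gene was detected where at least 1 unique molecular identifier (UMI, a tag that counts captured RNA molecules) was found. Of 49797 barcodes that passed a minimum of 500 UMIs and 250 genes, with no more than 50% of UMIs mitochondrial, 356 met this rule. Naive kidneys contributed 9 and 10 of these NK cells, rejecting kidneys 37 and 69, and tolerized kidneys 115 and 116.

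Naive kidneys were untransplanted and came from male wild-type C57BL/6 (B6, I-Ab) mice aged 10 to 12 weeks. Rejecting kidneys were BALB/c (I-Ad) kidneys, labeled male and 6 to 7 weeks of age, placed in wild-type B6 males whose own kidneys had both been removed, and recipients were otherwise untreated. Tolerized kidneys came from the same transplantation, but the recipients had also been infused with BALB/c splenocytes treated with the cross-linker ethylenecarbodiimide (ECDI), 7 days before and 1 day after surgery. All transplanted kidneys were taken on day 15. Each kidney gave a single library and counted as 1 replicate (n = 2 in each group), and p-values measure the spread between these kidneys. The infusions were part of the tolerized group only, and the state of the graft and the infusions cannot be told apart. Kidneys were perfused with buffer and dissociated without a stated sort, and NK cells of the graft, of the recipient, and of any blood left after perfusion were not separated here.

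NK cells are innate lymphocytes that kill cells without a rearranged antigen receptor. Activating receptors, among them Ncr1 (NKp46) and Klrk1 (NKG2D), signal through adaptors such as Tyrobp (DAP12), Fcer1g, and Hcst (DAP10), and inhibitory receptors of the Klra (Ly49) and Klrc1 (NKG2A) kind bind MHC class I and hold the cell back. Killing is carried out by perforin and granzymes, and NK cells also secrete IFN-γ and chemokines. In a graft with foreign MHC, NK cells of the recipient can meet cells that lack the MHC class I molecules for which their own inhibitory receptors are set.

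The genes that chose the cells are given as a description, without a test. Ncr1, on chromosome 7 (GRCm38, 4337724 to 4345164, plus strand), was detected in 86.5% and 76.8% of NK cells of the rejecting kidneys and in 93.0% and 92.2% of those of the tolerized kidneys. Klrb1c (NK1.1, chromosome 6, 128778485 to 128789215, minus strand) was detected in 86.5% and 78.3%, and in 85.2% and 83.6%. Klre1, which lies on the same chromosome at 129577905 to 129585827 (plus strand), was detected in 75.7% and 81.2%, and in 87.8% and 94.0%. The transcription factor Eomes (chromosome 9, 118478212 to 118486132, plus strand) was the sparsest, at 24.3% and 52.2%, and 55.7% and 41.4%. All 4 markers were found together in 117 cells, and Ncr1, Klrb1c, and Klre1 without Eomes in 103. Barcodes on the edge of the rule, with exactly 2 markers, numbered 15 and 28 in the rejecting and 26 and 25 in the tolerized kidneys. Those just outside, with exactly 1 marker and none of the excluded genes, numbered 45 and 31, and 31 and 36. Gzma was detected in 93.3% and 85.7%, and 57.7% and 64.0%, of the barcodes with 2 markers, compared with 26.7% and 48.4%, and 25.8% and 5.56%, of those with 1.

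The label was checked against NK genes that the rule did not use. T cells, for comparison, were barcodes with at least 2 of Cd3e, Cd3d, Cd3g, and Trac without Cd79a and C1qb and with fewer than 2 NK markers, so that Trac in T cells is set by their selection. The limit on NK markers leaves out T cells that carry NK receptors, and it can lower the shares of other NK genes in T cells. The T cells kept numbered 1973 and 2196 in the rejecting and 1540 and 848 in the tolerized kidneys. Proximal tubule barcodes had at least 4 of 6 tubular genes and no Ptprc, the gene of the pan-leukocyte antigen CD45. Gzma, the granzyme most abundant in NK cells here, was detected in 97.3% and 94.2% of NK cells of the rejecting and 82.6% and 84.5% of those of the tolerized kidneys, compared with 2.87% to 7.15% of T cells and 0.351% to 5.01% of proximal tubule barcodes. Tyrobp was found in 91.9% and 98.6%, and 98.3% and 95.7%, of NK cells, compared with 6.60% to 25.8% of T cells. Klra8 (Ly49H), an activating receptor that B6 mice carry and BALB/c mice lack, was found in 45.9% and 62.3%, and 53.9% and 55.2%, of NK cells, but in at most 0.304% of T cells and 0.0876% of proximal tubule barcodes. Trac, the constant segment of the T cell receptor α chain, was found in 8.11% and 4.35%, and 3.48% and 12.9%, of NK cells, a range that overlapped the 3.33% to 7.90% of proximal tubule barcodes and lay far below the 68.1% to 92.6% of T cells. Cd4 was at 0 in every NK cell of the 4 grafts, which allows up to 8.11% of cells with a captured Cd4 UMI in the smallest sample and sets no limit on cells that express it, and Cd8a was detected in at most 5.41%. Trbc1, the T cell receptor β constant segment, was detected in 54.1% to 77.4% of NK cells and 39.9% to 54.6% of T cells. NK cells are known to transcribe this segment without a rearranged gene.

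**Figure D1:**
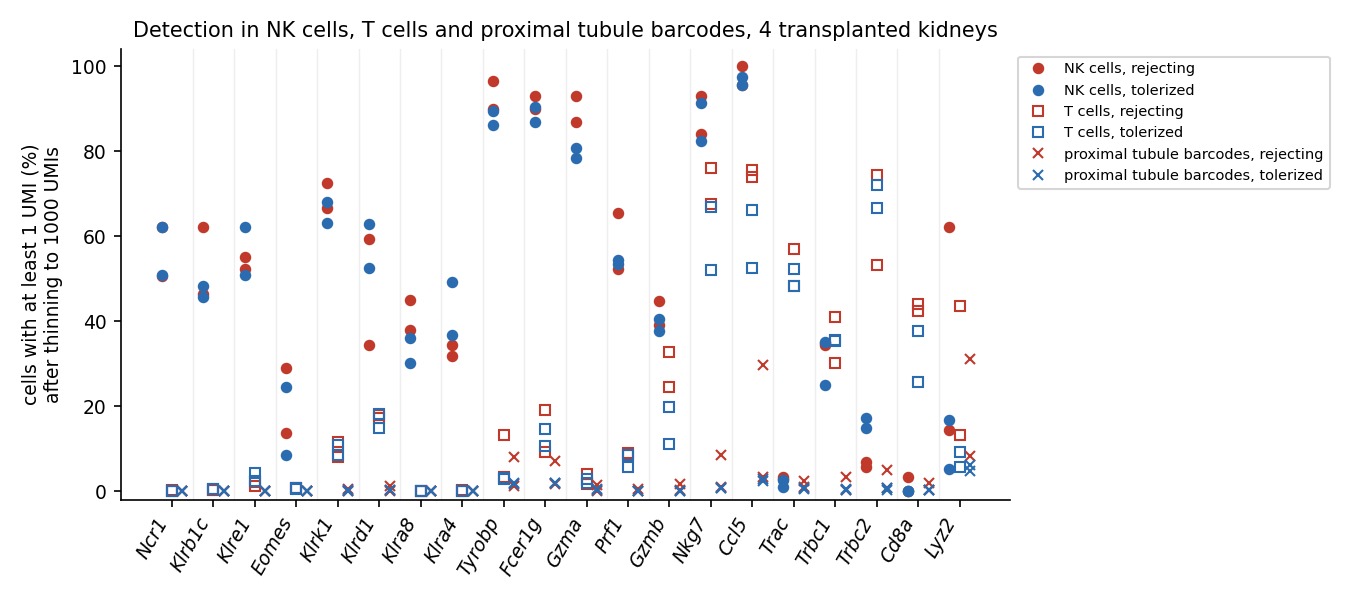
Share of cells (y axis, percent) with at least 1 UMI of each gene (x axis) after every cell was thinned to 1000 UMIs, with 1 point per transplanted kidney for NK cells (filled circles), T cells (open squares), and proximal tubule barcodes (crosses). Ncr1 to Eomes chose the NK cells. Gzma, Tyrobp, Klra8, and Klra4 separated NK cells from T cells in all 4 kidneys, whereas Trbc1 did not, and Lyz2, a macrophage gene, was highest in the first rejecting kidney in NK cells, T cells, and tubule barcodes.

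The depth of the cells differed between the groups. Levels below are scaled to a total, whereas shares of cells with a UMI are given as detected, with shares thinned to 1000 UMIs per cell beside some of them. The matrices held 56837038 and 48111410 UMIs for the rejecting and 96803926 and 94316013 for the tolerized kidneys. The median NK cell had 1956 and 2278 UMIs in the rejecting and 3647 and 4208.5 in the tolerized kidneys, and the summed NK cells held 84926, 180791, 503285, and 556987 UMIs. Mitochondrial UMIs made up a median of 6.32% and 5.10%, and 4.35% and 6.31%, of an NK cell. No NK barcode was shared between libraries, while pairs of libraries shared 0 to 111 barcode sequences in all.

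NK cells were more numerous in the tolerized than in the rejecting kidneys, and the groups did not overlap. Their number was 53.0 ± 22.6 in the rejecting and 115.5 ± 0.707 in the tolerized kidneys (mean ± SD, n = 2), a ratio of 2.18. The difference of 62.5 cells had p = 0.33 in an exact 2-sided permutation test, which is the smallest value that 2 kidneys against 2 can give. Relative to T cells, there were 1.88 and 3.14 NK cells per 100 T cells in the rejecting and 7.47 and 13.7 in the tolerized kidneys. Of the barcodes with Ptprc, those that were NK cells made up 0.525% (95% Wilson interval 0.377% to 0.729%) and 1.19% (0.940% to 1.52%) in the rejecting kidneys, compared with 2.38% (1.98% to 2.86%) and 4.98% (4.15% to 5.96%) in the tolerized kidneys. Both ratios reached p = 0.33 in the same exact permutation test. The naive kidneys held 4.92% and 3.41% of Ptprc-positive barcodes as NK cells, from 183 and 205 such barcodes. These intervals cover counting error only, and a share of dissociated cells is not a count per kidney.

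How many NK cells were counted depended on the genes required to be absent. Of the barcodes with at least 2 NK markers, 72.6% and 56.3% failed the requirement in the rejecting kidneys, compared with 34.7% and 29.3% in the tolerized kidneys. C1qb, a complement gene of macrophages, was found in 42.1% and 13.4% of the proximal tubule barcodes of the rejecting kidneys and in 14.1% and 8.55% of those of the tolerized kidneys. Without the limits on C1qb and Cd79a, NK cells numbered 67 and 99, and 125 and 127, a ratio of 1.52. Cd3g was found in 22.7% and 3.77%, and 1.95% and 2.84%, of the proximal tubule barcodes. Having no limit on excluded genes lets in T cells that carry NK receptors and any NK cells with stray Cd3 UMIs. The barcodes then numbered 135 and 158, and 176 and 164, a ratio of 1.16. When every barcode was first thinned to 1000 UMIs, the numbers were 33 and 53, and 74 and 75, a ratio of 1.73. The groups stayed apart in these 3 counts. They overlapped where Trac, Trbc1, and Trbc2 also had to be absent, which left 15 and 21, and 17 and 24, cells. Most NK cells had a UMI of Trbc1, as given above, so that this limit also removes NK cells. NK cells of the tolerized kidneys were deeper, and the part of depth in this overlap was not tested. Where Lyz2, Csf1r, Kap, and Slc34a1 had to be absent, 1 and 31, and 6 and 1, were left. This limit left only 400 and 1693, and 204 and 44, barcodes of any kind. Per 100 T cells, the ratio of 4.21 between the groups was 2.83 without any limit on excluded genes and 2.29 where Trac, Trbc1, and Trbc2 had to be absent. The ratio of the Ptprc shares of 4.28 was 2.295 in the latter case, with overlapping groups.

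**Figure D2:**
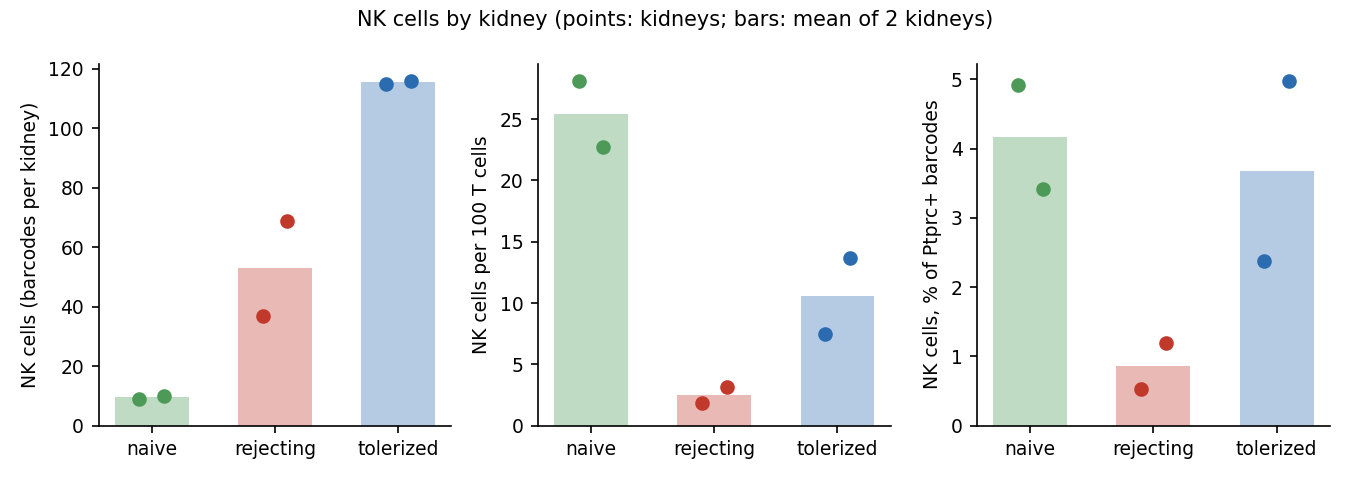
NK cells of each kidney (points) and the mean of 2 kidneys (bars) for the naive, rejecting, and tolerized groups, as a number of barcodes, per 100 T cells, and as a percentage of barcodes with Ptprc (y axes, from left to right). Tolerized kidneys lay above rejecting kidneys in the 3 panels, and naive kidneys had few NK cells in number but many per 100 T cells.

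Members varied in their receptors. At least 1 of the 5 Ly49 genes Klra3, Klra4, Klra7, Klra8, and Klra9 was detected in 86.5% and 82.6% of NK cells of the rejecting and 80.0% and 82.8% of those of the tolerized kidneys. Klrc1 was detected in 37.8% and 24.6%, and 38.3% and 38.8%. Cd27, a marker of the less mature murine NK cells, was detected without Itgam (CD11b), a marker of the more mature, in 10.8% and 42.0%, and 33.0% and 31.0%. Itgam without Cd27 was detected in 13.5% and 7.25%, and 14.8% and 15.5%. Among the transplanted kidneys, the first rejecting kidney thus held the fewest cells with Cd27. Mki67 or Top2a, genes of dividing cells, were detected in 13.5% and 7.25%, and 7.83% and 7.76%. Cxcr6 or Itga1, which are found on tissue-resident group 1 innate lymphoid cells (ILC1), were detected in 10.8% and 5.80%, and 21.7% and 16.4%, of NK cells. Thinned to 1000 UMIs, the shares were 10.3% and 13.0%, and 18.4% and 19.8%, for Klrc1. They were 6.90% and 30.4%, and 18.4% and 13.8%, for Cd27, and 0% and 1.45%, and 2.63% and 6.03%, for Cxcr6. The level of Klrc1 was 249 and 150 CPM, and 197 and 296 CPM, and overlapped between the groups, unlike its share. Among the transplanted kidneys, Cd27 kept its lowest share in the first rejecting kidney. Itga1, at 6.90% and 0%, and 4.39% and 2.59%, overlapped after thinning. Unthinned, Itga1 was also detected in 31.7% to 44.8% of proximal tubule barcodes, so that its share in NK cells did not exceed the level in cells of another kind.

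No difference in the genes of killing passed the test between NK cells of rejecting and tolerized kidneys. UMIs of the NK cells were summed per kidney, given as CPM (UMIs per 1000000 after TMM scaling), and compared with edgeR's quasi-likelihood test over 4481 genes. None of the 18 tested genes of cytotoxic granules and death ligands passed a false discovery rate (FDR) of 0.05, and 1 had an unadjusted p under 0.05, lower in the tolerized kidneys. Their median log2 fold change, tolerized over rejecting, was -0.26, beside 0.021 over all genes tested, and 15 were negative and 3 positive. Their summed level was 202 and 179 per 10000 UMIs in the rejecting and 167 and 160 in the tolerized kidneys, and these groups did not overlap. Across all genes, 8.23% had an unadjusted p under 0.05, 4.4% higher and 3.84% lower in the tolerized kidneys, and 0.0446% passed the FDR.

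Gzma (chromosome 13, 113093825 to 113100981, minus strand) had 11055 and 8788 CPM in the rejecting and 9348 and 9967 CPM in the tolerized kidneys. The 2 tolerized kidneys lay between the 2 rejecting kidneys, and the log2 fold change was -0.038 (SE 0.22, edgeR FDR 0.994). Prf1, which encodes perforin, the pore that lets granzymes into the target, had 1407 and 1011 CPM, and 979 and 1017 CPM, with a log2 fold change of -0.27 (SE 0.25). Gzmb had 1033 and 944 CPM, and 724 and 1019 CPM, with a log2 fold change of -0.18 (SE 0.26). The groups overlapped for both genes. Nkg7, a granule membrane protein, was also overlapping, at 3324 and 2583 CPM, and 2809 and 3067 CPM. A smaller difference than these SEs resolve was not detectable with 2 kidneys per group.

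No difference in the secreted products passed the test either, apart from Cxcl10. Ccl5, a chemokine that attracts T cells and monocytes, had 14193 and 8755 CPM, and 12423 and 16745 CPM (log2 fold change 0.35, SE 0.28). Xcl1, which attracts cross-presenting dendritic cells, had 598 and 855 CPM, and 702 and 976 CPM. Ifng, the gene of IFN-γ, was detected in 27.0% and 14.5% of NK cells of the rejecting and 40.9% and 33.6% of those of the tolerized kidneys. After thinning to 1000 UMIs these shares were 13.8% and 10.1%, and 16.7% and 13.8%, and the first rejecting and the second tolerized kidney were level. Of 10 tested secreted factors, only Cxcl10 passed the FDR and none besides it had an unadjusted p under 0.05.

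None of the receptors, adaptors, or transcription factors of NK cells passed the FDR. Of 14 activating receptors tested, none had an unadjusted p under 0.05, and the median log2 fold change was -0.0075. Klrk1 had 996 and 1133 CPM, and 1030 and 1219 CPM, with overlapping groups. Klra8 (chromosome 6, 130115226 to 130129898, minus strand) had 685 and 928 CPM in the rejecting and 578 and 602 CPM in the tolerized kidneys. The tolerized kidneys both lay below the rejecting ones, yet the log2 fold change was -0.46 with an SE of 0.25 (edgeR FDR 0.684). Of 9 inhibitory receptors, 1 had an unadjusted p under 0.05, lower in the tolerized kidneys, and the median was 0.094. Klrd1 (CD94), the partner of Klrc1, had 535 and 789 CPM, and 799 and 893 CPM (log2 fold change 0.33, SE 0.27). The groups of Klrd1 did not overlap either, as was the case for 39.2% of all genes tested, 20.3% with higher and 18.9% with lower tolerized kidneys.

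Of 21 adaptors and kinases, none had an unadjusted p under 0.05. Tyrobp had 2988 and 2428 CPM, and 2959 and 3190 CPM (log2 fold change 0.19, SE 0.22), and Fcer1g had 3187 and 2128 CPM, and 2497 CPM in each tolerized kidney. Among 21 transcription factors, Id2, which all innate lymphoid cells need, was the only one with an unadjusted p under 0.05. It had 461 and 628 CPM in the rejecting and 803 and 876 CPM in the tolerized kidneys, a log2 fold change of 0.61 (SE 0.26) with an edgeR FDR of 0.594. The lists of mature and of immature NK genes had medians of -0.0045 over 14 genes and 0.076 over 13 genes.

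Il7r, a cytokine receptor gene found in ILC1 and memory lymphocytes, had the largest positive fold change in the lists of immature NK and of ILC1 genes. It was counted with 2 and 2 UMIs in NK cells of the rejecting and 42 and 21 UMIs in those of the tolerized kidneys, or 24.9 and 11.1 CPM, and 89.9 and 44.7 CPM. The cells with Il7r numbered 1 and 2, and 12 and 7, and so these counts came from few cells. The log2 fold change was 2.09 (SE 0.71, edgeR FDR 0.422). From the pooled counts the ratio was 3.95, with an exact 95% interval of 1.47 to 14.9 for counting error. Cxcr6 had 37.3 and 22.2 CPM, and 51.4 and 80.8 CPM (log2 fold change 1.27, SE 0.54, edgeR FDR 0.594), also from 3 and 4, and 24 and 38, UMIs. Of 14 tested ILC1 genes, 4 were higher at an unadjusted p under 0.05, beside 4.4% across all genes, and the median was 0.42. Without barcodes that carried many UMIs of other cells, which are described below, 1 of 11 was higher, and the median was 0.096. In that fit 200 of all 3908 genes had an unadjusted p under 0.05 in either direction. Fewer ILC1 genes were tested there, so that the 2 medians are over different genes.

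Only 2 genes passed the FDR in NK cells. Cxcl10 (chromosome 5, 92346638 to 92348889, minus strand), an IFN-γ-induced chemokine that attracts Cxcr3-bearing T and NK cells, was lower in the tolerized kidneys. It had 1482 and 661 CPM in the rejecting and 10.7 and 27.6 CPM in the tolerized kidneys, a log2 fold change of -5.74 (SE 0.54, edgeR FDR 0.0137). Acsm2 (chromosome 7, 119554340 to 119600690, plus strand), a medium-chain acyl-CoA synthetase of the proximal tubule, was higher. It had 12.4 and 11.1 CPM, and 306.2 and 199.9 CPM, a log2 fold change of 4.41 (SE 0.52, edgeR FDR 0.0399). From 1 and 2, and 143 and 94, UMIs the pooled ratio was 19.8, with an exact 95% interval of 6.69 to 96.7 for counting error. Neither is a gene known for NK cells, and single barcodes were therefore examined. Without the first or the second rejecting kidney no gene passed the FDR in edgeR, whereas 56 and 68 passed without the first and the second tolerized kidney, both genes among them. With the replicate number of the labels as a block, no gene passed in edgeR either. In the 3 fits without a call, 368, 491, and 348 genes, in this order, had an unadjusted p under 0.05.

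The UMIs of Cxcl10 came mostly from 1 barcode in each rejecting kidney. Of 119 Cxcl10 UMIs in the first rejecting kidney, 99 were in 1 barcode, and of 119 in the second, 108 were in 1 barcode. These barcodes had 11742 and 9283 UMIs in all, of which 202 and 185 were of 9 macrophage genes and 175 and 176 of Lyz2 (lysozyme) alone. They met the rule with 4 UMIs of Ncr1, 3 of Klrb1c, and 2 of Klre1 in the first, and with 1 of Ncr1, 8 of Klre1, and 1 of Eomes in the second. Cxcl10 was detected in 4 and 6 NK cells of the rejecting kidneys, and in 4 and 9 of the tolerized kidneys. The level of Cxcl10 in each rejecting kidney was thus mostly that of 1 barcode, while in the tolerized kidneys no barcode held more than 5 of its UMIs. In the first rejecting kidney the same barcode also held 133 of 140 UMIs of Cxcl9, 61 of 66 of Ifi27l2a, and 22 of 24 of Gbp2, which are all interferon-induced.

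UMIs of the proximal tubule were concentrated in few barcodes of the first tolerized kidney but not of the second. In the first tolerized kidney 9 barcodes had 50 or more UMIs of 6 tubular genes, and the second had 2, whereas the rejecting kidneys had none. Kap, an abundant proximal tubule gene, was counted with 54 and 46 UMIs in NK cells of the rejecting kidneys and 6009 and 685 UMIs in those of the tolerized kidneys, and 2456 of the 6009 were in 1 barcode. Of the Acsm2 UMIs in the first tolerized kidney, 119 of 143 lay in barcodes with many UMIs of other cells, but in the second 88 of 94 lay outside them, spread over 58 cells. All 6 tubular genes were higher in the tolerized kidneys at an unadjusted p under 0.05, with a median log2 fold change of 3.04, and all 5 tested macrophage genes were lower, with a median of -2.27. Across all genes 4.4% were higher and 3.84% lower at this threshold. Without mixed barcodes, as defined below, 4 of 6 tubular genes were higher, with a median of 1.49, and 3 of 4 tested macrophage genes were lower, with a median of -2.12. Of all 3908 genes tested without them, 200 had an unadjusted p under 0.05 in either direction. Both lists help define the mixed barcodes, so that part of this move was set by that choice.

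**Figure D3:**
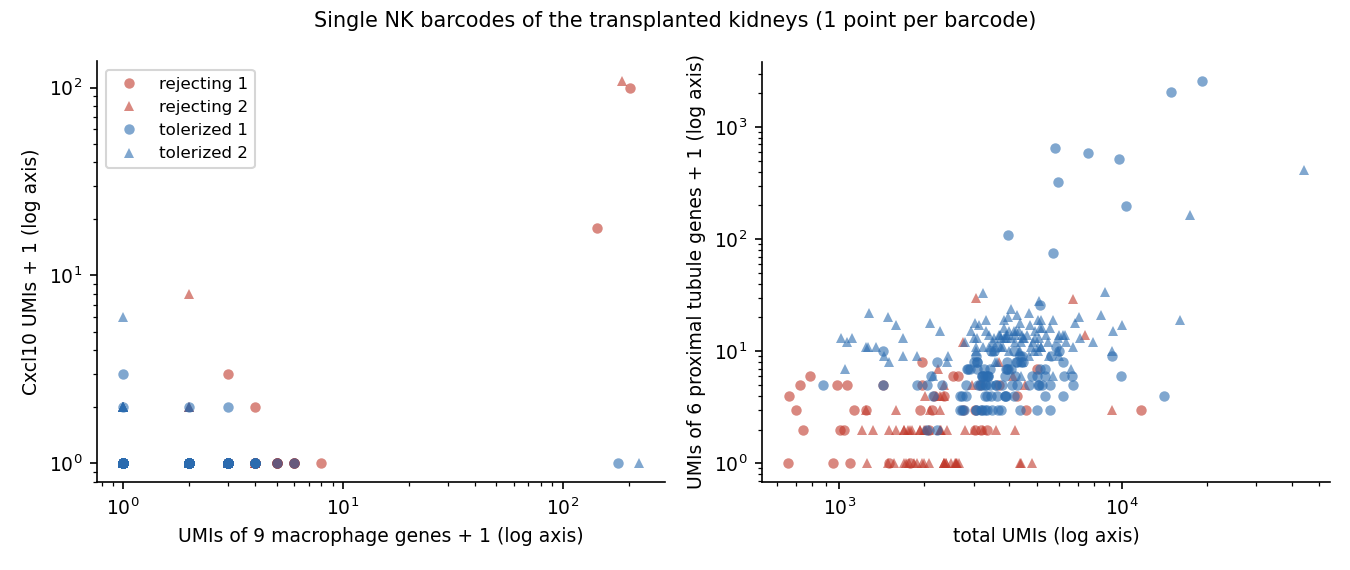
Each point is 1 NK barcode of a transplanted kidney, with the UMIs of Cxcl10 against those of 9 macrophage genes on the left and the UMIs of 6 proximal tubule genes against total UMIs on the right (all axes logarithmic, with 1 added to the marker counts). The barcodes with 99 and 108 Cxcl10 UMIs also had 202 and 185 macrophage UMIs, and barcodes with 50 or more tubular UMIs were found in the tolerized kidneys only.

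Barcodes with at least 10 macrophage, 20 dendritic cell, 50 proximal tubule, or 10 endothelial UMIs, called mixed barcodes here, numbered 2 and 3 in the rejecting and 11 and 2 in the tolerized kidneys. Of these 18, 12 were also among the barcodes with the highest Scrublet scores, which were labeled doublets in a number fixed by library size. The limits were set after the values were seen. Without the mixed barcodes, none of 3908 genes passed the FDR in edgeR, while 200 had an unadjusted p under 0.05. The log2 fold change of Cxcl10 was then -1.41 (edgeR FDR 0.911) and that of Acsm2 3.35 (edgeR FDR 0.795). The summed level of the macrophage genes in NK cells was 52.5 and 13.4 per 10000 UMIs in the rejecting and 5.70 and 4.70 in the tolerized kidneys with all barcodes, and 14.4 and 3.18, and 2.55 and 0.767, without the mixed ones. In T cells it was 16.4 and 4.99, and 5.27 and 1.57, and it was highest in the first rejecting and lowest in the second tolerized kidney in both cell types. Lyz2 was the most abundant macrophage gene, and C1qb was at 0 by the rule. For the tubular genes the sums were 11.0 and 8.79, and 151 and 36.5, with all barcodes, and 12.4 and 9.54, and 12.7 and 29.4, without the mixed ones. With all barcodes Kap was the most abundant of them except in the second rejecting kidney, where Fxyd2 had 80 UMIs and Kap 46.

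Markers of other leukocytes were present to different degrees. The summed dendritic cell genes stood at 35.3 and 8.68, and 18.2 and 12.3, per 10000 UMIs in NK cells, and at 12.0 and 2.88, and 3.09 and 4.68, without mixed barcodes, compared with 30.8 and 11.8, and 15.9 and 12.7, in T cells. Cd74, the invariant chain of MHC class II, was the most abundant of them, at 2552 and 461 CPM, and 1188 and 780.5 CPM, whereas Xcr1, Clec9a, and Flt3 were at 0 in NK cells of all 4 grafts. Cd3e, Cd3d, Cd3g, Cd79a, and C1qb were at 0 by the rule and say nothing of other cells, and the T cell list was therefore not compared. Of genes that the rule did not use, Cd5 of T cells and Ms4a1 of B cells were at 0, whereas Cd28 was counted with 13 and 32, and 54 and 49, UMIs and Ighm, the heavy chain of IgM, with 12 and 26, and 57 and 66. No neutrophil, mast cell, or endothelial gene was abundant enough to be tested.

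Interferon-induced genes had mostly negative fold changes, of which only that of Cxcl10 passed the FDR, and the medians moved toward 0 without the mixed barcodes. Of 10 tested genes induced by type I interferon, 5 were lower at an unadjusted p under 0.05 and none higher, with a median log2 fold change of -1.17. Of 17 tested genes induced by IFN-γ, Cxcl10 among them, 5 were lower and 1 higher, with a median of -0.59. Across all genes 3.84% were lower at this threshold. Without mixed barcodes none of 5 and 1 of 14 tested genes were lower at this threshold, and the medians were -0.43 and -0.29. In that fit 200 of all 3908 genes had an unadjusted p under 0.05 in either direction. Its medians are over fewer genes. Ifi27l2a and Cxcl9, at -3.33 and -5.58 with all barcodes, were no longer tested, and medians over the same genes are not given. Gbp2, a guanylate-binding protein that acts against intracellular microbes, had 298.8 and 122 CPM, and 57.8 and 31.9 CPM, a log2 fold change of -2.08 (SE 0.48, edgeR FDR 0.243), and of -0.49 without mixed barcodes. Bst2 (tetherin) had 74.7 and 267 CPM, and 77.1 and 76.6 CPM, and its groups overlapped. Parp14, an ADP-ribosyltransferase induced by interferon, had 199.2 and 172 CPM, and 70.7 and 78.7 CPM (log2 fold change -1.29, SE 0.29, edgeR FDR 0.241), and -0.51 without mixed barcodes. The 12 MHC class I genes tested had a median of -0.23, and none had an unadjusted p under 0.05.

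Genes induced by NF-κB and heat shock genes had mostly negative fold changes too, and none passed the FDR. Of 13 NF-κB and TNF feedback genes, 7 were lower and none higher at an unadjusted p under 0.05, with a median of -0.64, beside 3.84% lower across all genes. Without mixed barcodes 1 of 12 was lower, and the median was -0.52. In that fit 200 of all 3908 genes had an unadjusted p under 0.05 in either direction. Nfkbia, which encodes the inhibitor IκBα, had 585 and 483 CPM in the rejecting and 343 and 276.5 CPM in the tolerized kidneys (log2 fold change -0.77, SE 0.27, edgeR FDR 0.422). Bcl2a1b, an inhibitor of apoptosis, had 149.4 and 156 CPM, and 59.95 and 61.7 CPM (-1.33, SE 0.30, edgeR FDR 0.243), and its near-identical copies may share its reads. Both genes had groups that did not overlap. Of 9 heat shock genes, 5 were lower and none higher, with a median of -0.59, and without mixed barcodes 5 were lower, with a median of -0.60. Hspa8, a chaperone present in all cells, had 4084 and 2172 CPM, and 1814 and 1610 CPM (-0.86, SE 0.31, edgeR FDR 0.453), and its log2 fold change was -0.56 without mixed barcodes. Dnaja1, a cochaperone of Hspa8, had 822 and 1222 CPM, and 606 and 510 CPM (-0.89, SE 0.27, edgeR FDR 0.383). T cells of the same kidneys had log2 fold changes of -0.49 and -0.65 for Hspa8 and Dnaja1, which did not pass the FDR. The 18 immediate early genes tested, which also respond to dissociation, had a median of -0.091, and none had an unadjusted p under 0.05.

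**Figure D4:**
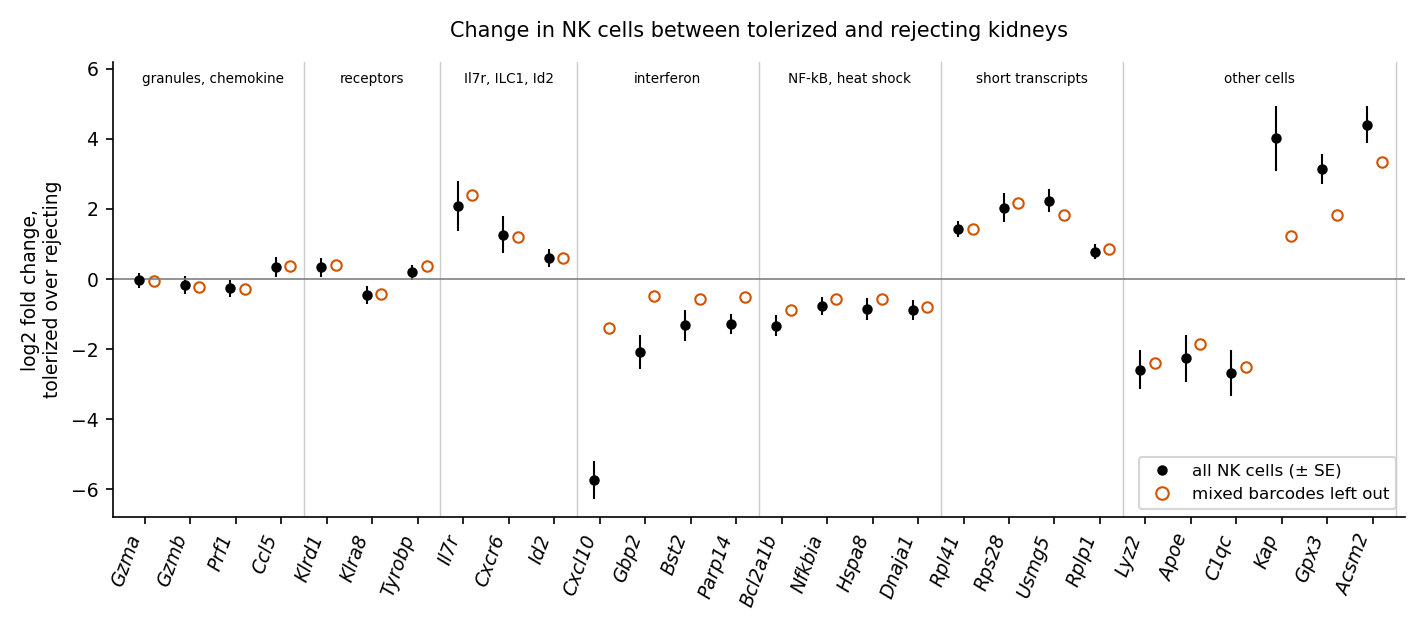
Log2 fold change in NK cells (y axis, tolerized over rejecting) of named genes (x axis, grouped), with all NK barcodes (black, ± SE) and with the mixed barcodes left out (orange, open). Genes of killing lay near 0 in both, Cxcl10 and Kap moved toward 0 without the mixed barcodes, and Rpl41, Rps28, and Dnaja1 hardly moved.

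Genes of ribosomal proteins and the respiratory chain, many with short transcripts, had mostly positive fold changes in NK cells of tolerized kidneys, and none passed the FDR in edgeR. Of 30 tested nuclear genes of the respiratory chain, 13 were higher at an unadjusted p under 0.05 and none lower, and the median log2 fold change was 0.63. Without mixed barcodes 4 were higher, and the median was 0.34. Of 80 tested ribosomal protein genes, 13 were higher and none lower, and the median was 0.20. Without mixed barcodes 19 were higher, and the median was 0.33. Across all genes 4.4% were higher at this threshold with all barcodes. In the fit without mixed barcodes, 200 of 3908 genes had an unadjusted p under 0.05 in either direction. Rpl41, the gene of the shortest ribosomal protein, had 1382 and 1705 CPM, and 4188 and 4092 CPM, a log2 fold change of 1.42 (SE 0.23, edgeR FDR 0.0956). Rps28 had 162 and 499.95 CPM, and 1477 and 1408 CPM (2.04, SE 0.41, edgeR FDR 0.187), and Usmg5, a small subunit of ATP synthase, 62.3 and 72.2 CPM, and 285 and 366 CPM (2.24, SE 0.33, edgeR FDR 0.0806). DESeq2 called all 3, with an adjusted p of 0.0087 for Rpl41 and for Rps28 and of 0.030 for Usmg5. T cells had log2 fold changes of 1.40, 1.72, and 1.49 for Rpl41, Rps28, and Usmg5, which did not pass the FDR. The difference between the cell types was 0.10 (SE 0.24) for Rpl41, 0.45 (SE 0.27) for Rps28, and 0.88 (SE 0.38) for Usmg5, none of which passed the FDR. The summed respiratory chain genes stood at 126 and 108, and 145 and 179, per 10000 UMIs in NK cells and at 157 and 105.5, and 156 and 157, in T cells. Without mixed barcodes those of NK cells were 127.1 and 110.2, and 127.3 and 141, and the difference between the cell types was not tested for the sums. The libraries of the 2 groups differed in depth, and the part of this in the result was not tested.

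To ask which changes differed between NK cells and T cells of the same kidneys, the interaction of cell type and group was tested with the kidney as a block. Of 11521 genes tested, 40 passed the FDR (0.347%), 27 of them with a higher change in NK cells (0.234%) and 13 with a lower one (0.113%). At an unadjusted p under 0.05 the share was 5.23%, with 3.89% higher and 1.34% lower. DESeq2 called 3 of the 40, Cxcl10, Ifi27l2a, and Cd8b1. In NK cells alone 4481 genes were tested, and many of the 11521 passed the count filter only through T cells. Cd8b1 was 1 of these, with 5 and 7, and 0 and 0, UMIs in NK cells. Many of the leading genes were tubular or came from single barcodes, such as Kap, Acy3, Spink1, and Cxcl10. Among the genes of NK cells, Gzma had a difference of -1.34 (SE 0.23, edgeR FDR 2.9e-05). Its level in NK cells did not differ beyond the spread of the kidneys, whereas T cells had 84.6 and 103.5 CPM in the rejecting and 310 and 197 CPM in the tolerized kidneys. The level of Gzma in T cells stayed far below that in NK cells in all 4 kidneys. Tyrobp had a difference of 1.15 (SE 0.25, edgeR FDR 0.003), with 211 and 69.95 CPM, and 89.4 and 48.5 CPM, in T cells. The summed macrophage genes of T cells, given above, ranked the transplanted kidneys in the same order, and a link was not tested. Both differences were as large or larger without the mixed barcodes, -1.45 for Gzma and 1.46 for Tyrobp. Il7r had a difference of 2.43 (SE 0.60, edgeR FDR 0.022), from the few UMIs in NK cells given above, while T cells had 124 and 219 CPM, and 167 and 136 CPM. These calls rested on single kidneys. Gzma did not pass without the first tolerized kidney (-0.99), Tyrobp without the first rejecting (0.46) or the second tolerized kidney (0.69), and Il7r without the second rejecting (1.35) or the first tolerized kidney (1.99). None of the 3 passed in DESeq2. Gzma did not pass either with at least 3 NK markers, with Trac, Trbc1, and Trbc2 or Lyz2, Csf1r, Kap, and Slc34a1 required to be absent, after thinning (-0.55), or without a limit on Cd3, C1qb, and Cd79a. Over all alternatives run, the call of Tyrobp was lost in 7 of 17, and for Il7r it was lost in 9 and the sign turned in 1 of 16.

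**Figure D5:**
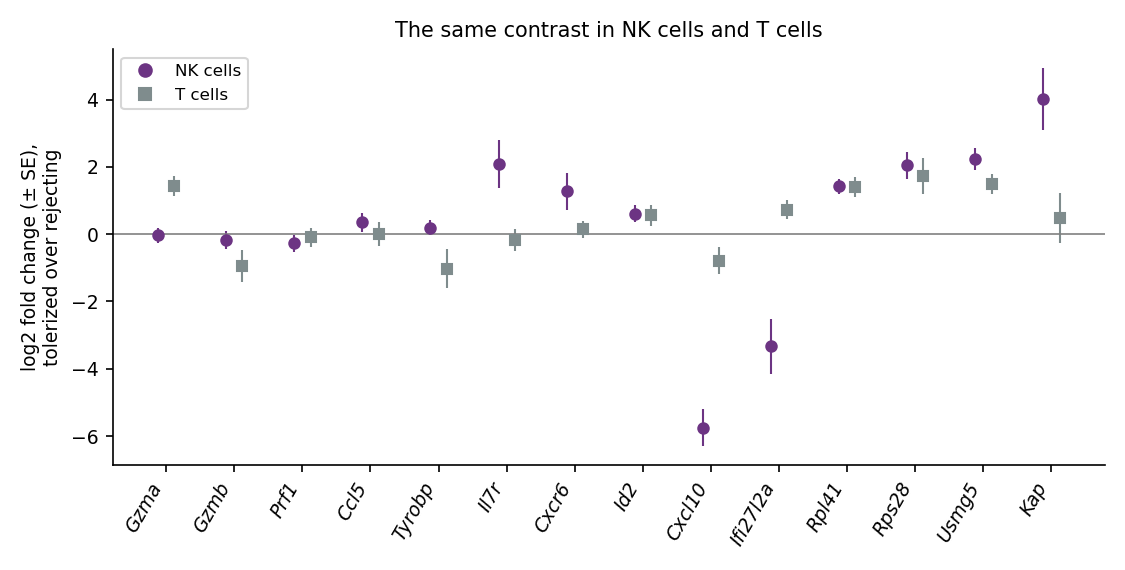
Log2 fold change (y axis, tolerized over rejecting, ± SE) of named genes in NK cells (circles) and in T cells of the same kidneys (squares). Rpl41 and Rps28 had positive changes in both, Gzma had a change of -0.038 in NK cells and 1.43 in T cells, and Cxcl10, Ifi27l2a, and Kap lay far apart. Neither change of Gzma passed the FDR. Without mixed barcodes the differences of Cxcl10 (-1.78) and Kap (0.16) did not pass the FDR. Kap counts toward the mixed barcodes, so that part of its move was set by their definition. The difference of Ifi27l2a (-4.61) passed, with at most 5 of its UMIs in NK cells of any graft. These were too few for a test in NK cells alone.

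In the 19 NK cells of the naive kidneys granzyme was detected in most and perforin in 1. Cells of the kidneys of a group are pooled here where no kidney is named, and their intervals cover counting error, not the spread between kidneys. Gzma was detected in 14 of 19 cells (73.7%, 95% Wilson interval 51.2% to 88.2%), Gzmb in 9 (47.4%), Nkg7 and Ccl5 in 18 each (94.7%), and Klrk1 in 15 (78.9%). Prf1 (chromosome 10, 61297833 to 61304680, plus strand) was detected in 1 of 19 cells (5.26%, interval 0.935% to 24.6%), with 1 UMI in all. In the single kidneys it was detected in 0% and 10.0% of naive NK cells, in 83.8% and 72.5% of those of the rejecting kidneys, and in 77.4% and 77.6% of those of the tolerized kidneys, compared with 15.5% to 26.9% of T cells of the same kidneys. After thinning to 1000 UMIs, it was detected in 0 of 19, 55 of 98 (56.1%), and 124 of 230 cells (53.9%). A count of 0 in 19 cells, taken as at most 3 counts, allows a share of cells with a Prf1 UMI of up to 15.8%. Ccl4, by contrast, was detected in 84.2% of the naive, 58.5% of the rejecting, and 64.5% of the tolerized NK cells. After thinning these shares were 73.7%, 40.8%, and 44.3%. Klra8 was found in 21.1%, 56.6%, and 54.5%, and after thinning in 15.8%, 42.9%, and 33.0%. The naive kidneys had a median of 2014 and 1963 UMIs per NK cell, near that of the rejecting kidneys. With 9 and 10 cells no test was made, and strain and age of the kidney, transplantation, and library processing cannot be told apart between naive and transplanted kidneys.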

How the data were processed

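The authors dissociated kidneys, made 1 10x library per kidney, and deposited raw UMI counts per gene and barcode, without normalization, which Cell Ranger made with mm10 per the labels; bcl2fastq is also named. Only the headers of the transplanted kidneys name a software version, and the naive kidneys list a different set of genes. Total UMIs are given in the results. Positions are from GENCODE M21 (GRCm38).

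UMIs were summed over NK cells per kidney, filtered with filterByExpr, scaled by TMM, and tested with edgeR 4.0.16 (quasi-likelihood, Benjamini-Hochberg FDR 0.05) between the 4 transplanted kidneys. The difference from T cells was an interaction with the kidney as a block. Numbers were compared with exact permutation tests, and Wilson intervals cover counting error. Doublets were the barcodes with the highest Scrublet scores (scanpy 1.11.5), at a fixed rate of 0.8% per 1000 deposited barcodes. They were kept in the results and left out as an alternative. Both edgeR tests were checked on simulated data (200 genes with known changes). DESeq2 1.42.0, Python 3.11.15, and R 4.3.3 were used.

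Members and gene lists were chosen with earlier results of these data known. Genes were picked by p (10 in each direction, and 5 in each direction for the difference from T cells). Others were the 3 most abundant and the most changed members of each list, or are named by the study. Further genes were named after their values were seen, and not every picked gene is described above. Among the 10 higher, those not described include Fbp1 (log2 fold change 5.09), Slc34a1 (3.41), Gpx3 (3.14), Ass1 (2.77), and Dbi (1.65). Among the 10 lower they include Hp (-4.25), Ifi205 (-4.34), Slfn5 (-3.43), Eif6 (-1.21, and -0.90 without mixed barcodes), and Fn1. None of these passed the FDR in edgeR. Alternatives changed the tool, scaling, count filter, cell limits, marker rule, doublets, and depth, or left out 1 kidney; the limits on excluded genes and the mixed barcodes were added after seeing the data. Labels state no separate cultures or litters.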

Additional observations from a re-analysis of the deposited data

Results flagged for a closer look

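The change between rejecting and tolerized kidneys differed between NK cells and T cells for 40 genes in edgeR's test of that difference, and the 5 genes with the smallest p in each direction are given here as values. Gzma differed by -1.34, with a log2 fold change near 0 in NK cells and a positive one in T cells, neither of which passed the FDR. The call of its difference was lost in 7 of 17 alternatives. Cxcl10 differed by -4.93 and Ifi27l2a by -3.74, and in NK cells 61 of 66 UMIs of Ifi27l2a in the first rejecting kidney and 24 of 27 in the second tolerized kidney were in 1 barcode. Without mixed barcodes Ifi27l2a differed by -4.61 (edgeR FDR 0.0054), from 5 and 3, and 0 and 2, UMIs in NK cells. These were too few for a test in NK cells alone, and Ifi27l2a passed the count filter through T cells. Cxcl10 then differed by -1.78, which did not pass the FDR. Cd8b1 had a fitted difference of -10.2, from 5 and 7 UMIs in NK cells of the rejecting and 0 and 0 in those of the tolerized kidneys, so that the fitted size has no meaning as a fold. Umod, a gene of the thick ascending limb, differed by -1.59, and 98 of its 114 UMIs in the second rejecting kidney were in 1 barcode. Kap differed by 2.78, Acy3 by 4.497, and Spink1 by 2.92, and in the first tolerized kidney 5757 of 6009, 116 of 124, and 173 of 187 of their UMIs were in mixed barcodes. Slc12a3, the thiazide-sensitive cotransporter of the distal tubule, differed by 2.66, and 378 of its 391 UMIs in the second tolerized kidney were in 1 barcode. Il1b differed by 3.82, and 34 of its 35 UMIs in the second tolerized kidney were in 1 barcode.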

How the results depend on the processing

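The greater number of NK cells in tolerized kidneys kept its direction except where Lyz2, Csf1r, Kap, and Slc34a1 had to be absent (a difference of -12.5 cells). Kap was found in 82.7% and 49.8% of all kept barcodes of the rejecting and 94.6% and 98.8% of those of the tolerized kidneys. The limit thus removed most barcodes of any kind, and fewest in the second rejecting kidney. Per 100 T cells the ratio in this setting was 3.77, from few cells. Leaving out 1 kidney gave a difference of 46.5 to 78.5 cells.

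NK cells of the first rejecting kidney held 84926 UMIs, the fewest of the 4, which bounds the precision of its levels. Among the 4 transplanted kidneys, against 2 genes called in NK cells, DESeq2 called 11, Rpl41, Rps28, and Usmg5 among them, barcodes of at least 1000 UMIs 5, at most 20% mitochondrial UMIs 9 (with Rpl41 and Usmg5), and no limit on C1qb and Cd79a 1, which was Cxcl10. The fit on all 6 kidneys called Cxcl10 and Fbp1, and Acsm2 was lost. No filter on low counts (544 genes with an unadjusted p under 0.05), 0 Trac, Trbc1, and Trbc2 (40), 0 Lyz2, Csf1r, Kap, and Slc34a1 (1), doublets left out (279), thinning (57), no limit on Cd3, C1qb, and Cd79a (364), and mixed barcodes left out (200) gave 0 in edgeR. Without 1 kidney the count was 0 (either rejecting kidney) to 68, and the lone sample was taken to vary like the other group. Labels share replicate numbers, and the study names 2 experiments across the groups without tying them to these numbers. The replicate block called 0 genes (348 with an unadjusted p under 0.05), and the deviations of equal numbers correlated at 0.133 over 4485 genes.

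For the difference from T cells, against 40, DESeq2 called 3, its size factors 26, at most 20% mitochondrial UMIs 18, at least 3 NK markers 18, 0 Trac, Trbc1, and Trbc2 1, 0 Lyz2, Csf1r, Kap, and Slc34a1 0, thinning 1, no limit on C1qb and Cd79a 19, no limit on Cd3, C1qb, and Cd79a 2, and mixed barcodes left out 21. Of these 21, 10 were among the 40. Calls outside the 40 included Ccl4 (0.74, edgeR FDR 0.0117), Ccl5 (0.504, edgeR FDR 0.0274), Gzmb (0.81, edgeR FDR 0.0126), and Fcer1g (-0.736, edgeR FDR 0.0117). Leaving out 1 kidney gave 13 (without the first tolerized) to 81 (without the second rejecting).

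Signs turned in NK cells for Gzma with no filter (0.079), at least 1000 UMIs (0.011), at most 20% mitochondrial UMIs (0.043), 0 Trac, Trbc1, and Trbc2 (0.40), thinning (0.075), no limit on C1qb and Cd79a (0.045), no limit on Cd3, C1qb, and Cd79a (0.019), and without 1 kidney (-0.17 to 0.14). They turned for Gzmb with no limit on C1qb and Cd79a (0.13), no limit on Cd3, C1qb, and Cd79a (0.049), and without 1 kidney (-0.42 to 0.067), for Klra8 with 0 Trac, Trbc1, and Trbc2 (0.12), for Hspa8 with 0 Lyz2, Csf1r, Kap, and Slc34a1 (0.021), and for Bst2 without 1 kidney (-1.79 to 0.066). Over all alternatives the log2 fold change of Gzma in NK cells ranged from -1.58 to 0.40.

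Differences from T cells turned with no limit on Cd3, C1qb, and Cd79a for Cd8b1 (0.15), Kap (-0.82), Acy3 (-1.38), Spink1 (-0.50), Rpl41 (-0.00038), and Slc12a3 (-0.47). With 0 Trac, Trbc1, and Trbc2 those of Il7r (-1.43), Rpl41 (-0.24), and Rps28 (-0.073) turned. Umod turned with doublets left out (1.22), thinning (2.00), and without 1 kidney (-3.09 to 0.54). Slc12a3 also turned with at most 20% mitochondrial UMIs (-0.98), at least 3 markers (-1.14), 0 Lyz2, Csf1r, Kap, and Slc34a1 (-10.8), no limit on C1qb and Cd79a (-0.085), mixed barcodes left out (-1.55), and without 1 kidney (-2.51 to 5.27). The cause was not tested.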
